A study of Mus musculus with 12 samples.

Results

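The nuclear genes for subunits of the oxidative phosphorylation complexes were followed in mouse G1ME cells given GATA1 or a control vector. Members were taken by symbol, from probe sets that the platform annotation pairs with 1 gene: the Nduf genes of complex I, Sdha to Sdhd, and all symbols beginning with Uqcr, Cox4 to Cox8 or Atp5. The rule found 80 of 18193 genes, carried by 163 probe sets, and used no measured value except to let the brightest probe set stand for its gene. It took 33 genes of complex I, 4 of complex II, 8 of complex III, 18 of complex IV and 17 of complex V, with Ndufa4, a subunit of cytochrome c oxidase despite its name, placed in complex IV. Of the 80, 73 were bright enough to be tested among 10759 genes. Differences are given on the scale of log2(intensity + 16), which understates changes of dim genes, and a gene passed where its Benjamini-Hochberg adjusted p over all 10759 genes, from limma, was under 0.05.

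Messenger RNA was measured on 12 Affymetrix arrays of total RNA. G1ME is a murine progenitor line of the megakaryocyte and erythroid lineages that the labels call Gata1-negative, which holds for all 4 groups and makes every value one of a single cell line. Cells had received the MIGR1-GFP vector with GATA1, a zinc finger transcription factor of those lineages, or the same vector without it, and were sorted for GFP. The groups, of 3 arrays each with the letters A, B and C, are GATA1 at 18 h, vector at 18 h, GATA1 at 42 h and vector at 42 h. The design text calls the triplicates biological, but does not say what a letter stands for, so the spread between them may be partly technical.

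Oxidative phosphorylation makes most of the ATP of many cells. Complexes I and II pass electrons from NADH and from succinate to ubiquinone, complex III hands them on through cytochrome c to complex IV, which reduces oxygen, and complex V, the ATP synthase, uses the proton gradient that complexes I, III and IV build. Most subunits are encoded in the nucleus and the rest in mitochondrial DNA. Red cell precursors need mitochondria for heme synthesis, and mature red cells have lost them.

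The arrays were alike in scale, with median intensities of 8.05 to 8.29, and 3 arrays a group set the precision of the values. Array A of GATA1 at 42 h stood apart in its control probes. Its 5′ probe for 18S ribosomal RNA read 5427, against 27.7 to 1506 on the other arrays, and its ratio of 3′ to 5′ actin signal was 0.80 on the log2 scale, against 0.38 to 0.55. The Gata1 probe set read 2044 ± 355 in GATA1-labelled cells at 42 h and 3137 ± 116 in vector-labelled cells (SD, n = 3 each), a log2 difference of -0.63 ± 0.11 (SE, limma adjusted p = 0.00344). At 18 h it read 2334 ± 91.0 in GATA1-labelled cells and 3002 ± 284 in vector-labelled cells. Its position against the introduced and the disrupted sequence was not analysed here. It is therefore no check of the labels, and the groups are called GATA1-labelled and vector-labelled throughout.

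Lineage markers moved with the groups. At 42 h the summed intensity of 12 erythroid marker genes was 47447 to 53482 in GATA1-labelled cells and 8545 to 10019 in vector-labelled cells, and all 11 of those tested rose. The 12 megakaryocyte markers summed to 44643 to 55003 and 24377 to 25997 in the same order of groups, with 7 of 12 rising and 1 falling. The 12 mast cell and basophil markers summed to 159 to 187 in GATA1-labelled cells at 42 h and 2100 to 3434 in vector-labelled cells, and 3 of the 4 tested fell. The 14 myeloid markers summed to 519 to 662 in GATA1-labelled cells and 2805 to 3075 in vector-labelled cells, with 1 of 6 tested higher and 3 lower. The 12 lymphoid markers stayed dim in both, at 92.0 to 121 and 129 to 204, with 1 of 2 tested lower. In vector-labelled cells at 42 h, means were under 100 for 9 of the 12 erythroid and 4 of the 12 megakaryocyte genes. They were also under 100 for 10 of the 12 mast cell, 10 of the 14 myeloid and 11 of the 12 lymphoid genes. In GATA1-labelled cells the counts were 4, 1, 12, 12 and 12 in the same order. Most of the sums in vector-labelled cells therefore rest on a few genes. Of all genes tested at 42 h, 10.3% rose and 10.6% fell. At 18 h the erythroid sum was 12864 to 15851 in GATA1-labelled cells and 7475 to 9771 in vector-labelled cells. The part of these lineage changes in any result below was not tested. In bulk RNA, fewer cells of a type and less RNA per cell cannot be told apart.

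Most subunit genes were bright in every group. All 73 tested genes exceeded the array median on all 12 arrays, and 70 of the 80 had a mean intensity over 1000. The highest mean was 26993, for Cox6a1, the general form of a small cytochrome c oxidase subunit. Only 2 tested genes averaged under 100: Cox7a1, the heart and muscle form of subunit 7a, at 31.9 and Cox7c, a subunit present in all tissues, at 56.1. The other 7 members exceeded the array median on no array, with means of 3.16 to 5.89, and were not tested. They were Cox4i2, Cox6a2, Cox6b2, Cox7b2, Cox8b and Cox8c, forms of complex IV subunits known from particular tissues such as heart, muscle, lung or testis, and Ndufb4 of complex I. Intensities of different probe sets share no scale, so a dim probe set does not show that a gene is less expressed than its neighbour.

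At 18 h, no subunit gene passed the test between GATA1-labelled and vector-labelled cells. The limma count was 0 higher and 0 lower of 73, where 1.85% of all genes tested passed, 1.1% higher and 0.753% lower, and 0 of the 73 had an unadjusted p under 0.05, against 9.83% of all genes. The median log2 difference, GATA1-labelled minus vector-labelled, was -0.02 over the subunits and -0.01 over all genes. Without array A of vector at 18 h the subunit median was -0.0030, and without all 4 arrays lettered A it was 0.0048, so its sign is not settled. The 95% confidence interval lay within ±0.5 on the log2 scale for 70 of the 73, and within a 2-fold change for all 73. Differences ran from -0.28 for Cox7a1 to 0.30 for Ndufb1, an accessory subunit of the membrane arm of complex I, whose adjusted p was 0.538 in limma. The replicate block, which compares arrays of the same letter, also called 0 of 73, where 3.3% of all genes passed.

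The brightest genes of each complex show how close the groups were at 18 h. Cox6a1 read 26733, 25243 and 27583 in GATA1-labelled cells and 25228, 25584 and 27080 in vector-labelled cells. Atp5b, the catalytic beta subunit of the ATP synthase, read 23776, 23101 and 25969 in GATA1-labelled cells and 23232, 23662 and 25146 in vector-labelled cells. In both genes the groups overlapped, with log2 differences of 0.03 and 0.02. Uqcrb, a small subunit of complex III, read 19202, 19881 and 19562 in GATA1-labelled cells and 19736, 20526 and 20030 in vector-labelled cells, a difference of -0.04 ± 0.04 (SE). Uqcrc2, a core protein of complex III, differed by -0.12 ± 0.13 (SE) on the log2 scale. Ndufs8, an iron-sulfur subunit of complex I, was one of 5 of 73 subunits whose groups did not overlap, as did those of 15.4% of all genes, at 10927 to 11326 in GATA1-labelled cells and 11615 to 12154 in vector-labelled cells, with an adjusted p of 0.846 in limma. Cox6b1 of complex IV, Atp5pb of the ATP synthase stalk, and Sdhb, Sdhc and Ndufb6 all had log2 differences between -0.07 and 0.05.

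**Figure D1:**
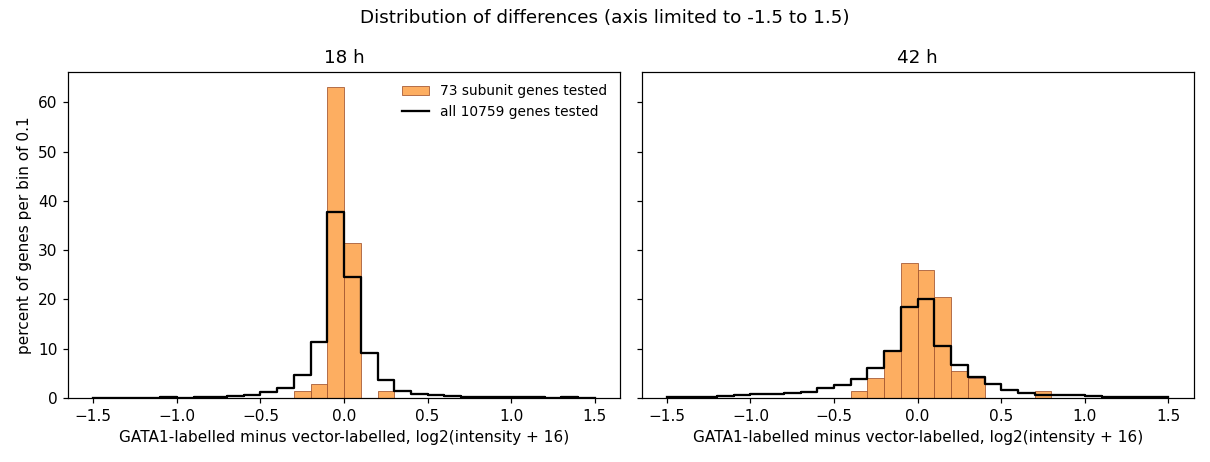
Share of genes by log2 difference, GATA1-labelled minus vector-labelled, in bins of 0.1, at 18 h (left) and 42 h (right); the filled bars are the 73 subunit genes and the black line all 10759 genes tested, with the axis limited to 1.5 in each direction. Within 0.1 of 0 lie 94.5% of the subunits and 62.2% of all genes at 18 h, and 53.4% of the subunits and 38.6% of all genes at 42 h, so both spread out at 42 h.

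At 42 h, 7 of the 73 subunit genes passed the test: 6 rose and 1 fell in GATA1-labelled cells. The rises were in Ndufb1, Ndufb6, Ndufb10 and Ndufa5 of complex I, Sdhb of complex II and Atp5g1 of complex V, and the fall was in Atp5e of complex V. Of all genes tested, 20.9% passed in limma, 10.3% higher and 10.6% lower, against 9.59% of the subunits. An unadjusted p under 0.05 was found for 13 of the 73 subunits and for 31.8% of all genes. The median log2 difference was 0.03 over the subunits and 0.0011 over all genes, with 42 subunits above 0 and 31 below. The size of the differences was smaller too, with a median absolute value of 0.088 for the subunits and 0.152 for all genes. The groups did not overlap for 15 of the 73 subunits and for 33.4% of all genes. Only Ndufb1 differed by more than 0.5, as did 15.1% of all genes. The 95% interval lay within a 2-fold change for 71 of 73 subunits, all but Ndufb1 and Cox7c, and within ±0.5 for 64.

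Brightness bears on this comparison, since most subunits are bright. Of the 1319 genes with a mean log2 value of at least 11.4, a level that 65 of the 73 subunits reach, 18.2% passed at 42 h. Of those 65 subunits 6 passed. The median absolute difference was 0.083 for these 65 and 0.125 for the 1319 genes. Both sets of values describe these arrays and were not tested against each other.

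With the replicate letter as a block, 7 subunits were higher and 2 lower at 42 h, where 28.4% of all genes passed. The additions, named after their values were seen, were Ndufs1, the largest iron-sulfur subunit of complex I, higher by 0.15 ± 0.05 on the log2 scale (SE, limma adjusted p = 0.0397 with the block and 0.062 without), and Ndufa7, an accessory subunit of its matrix arm, lower by 0.22 (difference -0.22 ± 0.06, adjusted p = 0.0242 with the block and 0.108 without). Within letters, the median subunit difference was -0.018 for the A arrays, 0.093 for B and 0.0016 for C. The number of subunits above 0 was 31, 57 and 37 of 73, so the direction of the whole set differed between letters. Without array A of GATA1 at 42 h, 8 were higher and 1 lower, of which 5 were among the 7. The share of all genes that passed in that fit is not given here.

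**Figure D2:**
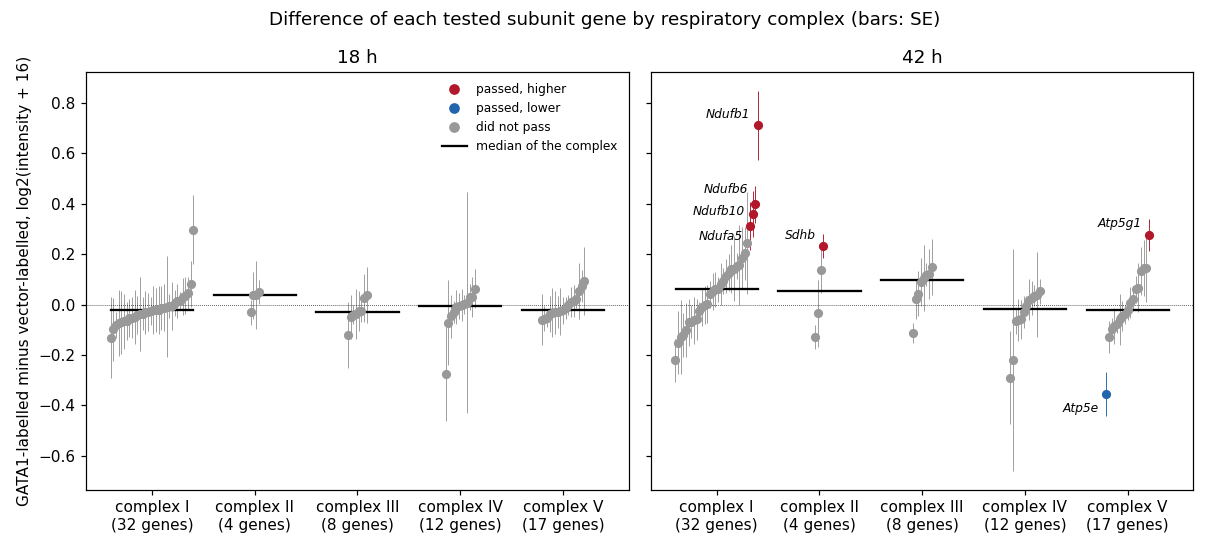
Log2 difference, GATA1-labelled minus vector-labelled, of each tested subunit gene with its SE, by complex, at 18 h (left) and 42 h (right); black lines are medians of a complex and coloured points passed the test. At 42 h 4 points of complex I, 1 of complex II and 2 of complex V are coloured, and none at 18 h or in complexes III and IV. Some grey points, such as Cox7a1 at -0.29 at 42 h, lie as far from 0 as coloured ones such as Sdhb at 0.23.

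Complex I, the NADH dehydrogenase, held 4 of the 6 rises. Of its 32 tested members 4 rose and 0 fell at 42 h, and the share that rose, 12.5%, was near the 10.3% of all genes that did. The median log2 difference was 0.06 at 42 h, against -0.02 at 18 h. In the membrane arm, which pumps protons, 3 of 18 members rose, and in the matrix arm, which takes electrons from NADH, 1 of 14. Whether the arms differ was not tested.

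Ndufb1, an accessory subunit of the membrane arm, had the largest difference of the subunits. It read 703, 1031 and 898 in GATA1-labelled cells at 42 h, against 500, 501 and 571 in vector-labelled cells. Every GATA1-labelled array was above every vector-labelled one, and the GATA1-labelled arrays were spread widely. The log2 difference was 0.71 ± 0.14 (SE), a 1.64-fold rise with a limma adjusted p of 0.00508. At 18 h it read 724, 654 and 629 in GATA1-labelled cells, against 620, 522 and 488 in vector-labelled cells, again without overlap but short of the threshold.

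Ndufb6, another accessory subunit of the membrane arm, read 20306, 20851 and 18618 in GATA1-labelled cells at 42 h, against 14642, 14934 and 15722 in vector-labelled cells. The groups were far apart relative to their spread. The log2 difference was 0.40 ± 0.07 (SE, limma adjusted p = 0.00414), a 1.32-fold rise. At 18 h it read 14841, 16793 and 14451 in GATA1-labelled cells, against 16901, 16501 and 14792 in vector-labelled cells, and the groups overlapped. Without the 4 arrays lettered A its adjusted p at 42 h was 0.0769.

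Ndufb10, a membrane arm subunit with cysteine pairs that are oxidised in the intermembrane space, read 9219, 7833 and 7731 in GATA1-labelled cells at 42 h, against 6942, 5885 and 6446 in vector-labelled cells. Array A was the highest in each group. The log2 difference was 0.36 ± 0.09 (SE, limma adjusted p = 0.0194). It missed the threshold without array A of GATA1 at 42 h (adjusted p = 0.0564) and without array B of vector at 42 h (0.0705).

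Ndufa5, an accessory subunit of the matrix arm, read 7835, 8255 and 8520 in GATA1-labelled cells at 42 h, against 6378, 5870 and 7682 in vector-labelled cells. The highest vector-labelled array came close to the lowest GATA1-labelled one. The log2 difference of 0.31 ± 0.10 (SE) had a limma adjusted p of 0.0454 and is the least stable of the 7. Its call was kept in 10 of 24 alternatives, and it was lost on leaving out any single array except A or B of GATA1 at 18 h or C of vector at 42 h, with adjusted p-values of 0.0617 to 0.146 in those fits.

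Complex II, succinate dehydrogenase, also serves the citric acid cycle, and 1 of its 4 genes rose. Among all genes tested 10.3% rose at 42 h, and 4 genes are too few to set against that share. Sdhb, the iron-sulfur subunit, read 5291, 5233 and 5478 in GATA1-labelled cells at 42 h, against 4481, 4607 and 4526 in vector-labelled cells. The arrays of each group lay close together and did not overlap. The log2 difference was 0.23 ± 0.05 (SE, limma adjusted p = 0.00719), a 1.17-fold rise. Without the 4 arrays lettered A the adjusted p was 0.0714.

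The other complex II genes did not pass at 42 h. Sdha, the flavoprotein that oxidises succinate, read 3030, 3099 and 3325 in GATA1-labelled cells, against 3469, 3340 and 3520 in vector-labelled cells. Its groups were separated by a narrow gap, and the log2 difference was -0.13 ± 0.05 (SE, limma adjusted p = 0.0986, and 0.0476 without array C of GATA1 at 42 h). Sdhc and Sdhd, which anchor the enzyme in the membrane, differed by -0.03 ± 0.13 and 0.14 ± 0.09 (SE). Sdhd read 3113, 4099 and 3712 in GATA1-labelled cells and 3023, 3337 and 3519 in vector-labelled cells, with array A low in both, and passed without array A of GATA1 at 42 h (adjusted p = 0.0477). The 4 subunits of this enzyme therefore had differences of both signs. At 18 h the 4 differences ran from -0.03 to 0.05.

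In complex III, the cytochrome bc1 complex, 0 of the 8 genes of the symbol rule passed at 42 h in limma. Of all genes tested 20.9% did. An unadjusted p under 0.05 was found for 2 of the 8 and for 31.8% of all genes. The median log2 difference was 0.10, with 7 of 8 above 0. Uqcrb was the exception, at 19192, 18115 and 19149 in GATA1-labelled cells and 20775, 20742 and 19556 in vector-labelled cells. Its groups did not overlap, and the difference was -0.11 ± 0.04 (SE, adjusted p = 0.0688). It passed without array C of vector at 42 h (limma adjusted p = 0.0391). Uqcrc2 read 19271, 17190 and 13470 in GATA1-labelled cells and 16414, 14694 and 14814 in vector-labelled cells, which overlapped, with a difference of 0.11 ± 0.13 (SE). The Rieske iron-sulfur protein gene Uqcrfs1, named after its values were seen, differed by 0.12 ± 0.04 (SE, adjusted p = 0.0891).

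In complex IV, cytochrome c oxidase, 0 of 12 tested genes passed at 42 h in limma, against 20.9% of all genes. An unadjusted p under 0.05 was found for 0 of the 12, against 31.8% of all genes. The median log2 difference was -0.016, against -0.0036 at 18 h. Cox6a1 read 28304, 28428 and 27983 in GATA1-labelled cells at 42 h and 28451, 25678 and 27620 in vector-labelled cells. Cox6b1, a subunit facing the intermembrane space, read 25053, 22932 and 22056 in GATA1-labelled cells and 25011, 20994 and 22756 in vector-labelled cells. Both pairs of groups overlapped, with log2 differences of 0.05 and 0.03.

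The general forms of the complex IV isoform families did not pass at 42 h, and their tissue-restricted partners were dim. Cox4i1 averaged 17340 ± 665 in GATA1-labelled cells at 42 h and 18129 ± 1041 in vector-labelled cells (SD, n = 3 each), while Cox4i2 was below the array median on every array. Cox7a2 averaged 16360 ± 298 and 16410 ± 634 in the same order, a log2 difference of -0.0038 with a 95% interval of -0.09 to 0.08. Cox7a2l, a related protein that joins complexes III and IV into supercomplexes, differed by -0.06 ± 0.08 and Cox8a by -0.06 ± 0.08 (SE). Cox7a1 read 28.5, 21.4 and 22.9 in GATA1-labelled cells at 42 h and 35.2, 18.8 and 50.2 in vector-labelled cells, near the bottom of the scale. Its difference of -0.29 ± 0.19 (SE) had a limma adjusted p of 0.344, and of 0.0108 without array B of vector at 42 h. Cox6a2, Cox6b2, Cox7b2, Cox8b and Cox8c gave no level above the array median to compare.

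Complex V, the ATP synthase, had 1 gene up and 1 down of 17 at 42 h, and a median log2 difference of -0.02. Among all genes tested, 10.3% rose and 10.6% fell. Atp5g1 is 1 of 3 genes, with Atp5g2 and Atp5g3, whose mature products are the same c subunit of the rotating membrane ring. It read 6705, 7543 and 7839 in GATA1-labelled cells at 42 h, against 6241, 5606 and 6373 in vector-labelled cells. The groups did not overlap, and the log2 difference was 0.28 ± 0.06 (SE, limma adjusted p = 0.0135). Without array B of GATA1 at 42 h the adjusted p was 0.0521.

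The other c subunit genes did not rise. Atp5g2 read 5906, 5936 and 5829 in GATA1-labelled cells at 42 h and 6543, 5784 and 6423 in vector-labelled cells, a log2 difference of -0.08 ± 0.07 (SE). Atp5g3 read 17061, 17274 and 17748 in GATA1-labelled cells and 18992, 18157 and 17786 in vector-labelled cells, a difference of -0.08 ± 0.04 (SE, limma adjusted p = 0.192). The signs of Atp5g2 and Atp5g3 were opposite to that of Atp5g1, and whether the 3 genes differ from each other was not tested. At 18 h their differences were 0.08 for Atp5g1, -0.04 for Atp5g2 and 0.02 for Atp5g3.

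Atp5e, the epsilon subunit at the foot of the central stalk of the catalytic head, read 3931, 4619 and 4856 in GATA1-labelled cells at 42 h, against 5648, 5497 and 5955 in vector-labelled cells. Every GATA1-labelled array was below every vector-labelled one, with array A the lowest. The log2 difference was -0.35 ± 0.09 (SE, limma adjusted p = 0.0171), so that the level was 1.28-fold higher in vector-labelled cells. At 18 h it read 4800, 4997 and 4628 in GATA1-labelled cells and 5369, 4487 and 4912 in vector-labelled cells, which overlapped. Vector-labelled cells themselves had a higher level at 42 h than at 18 h, by 0.21 ± 0.09 on the log2 scale (SE), with an adjusted p of 0.716 in limma. The call at 42 h was lost without array C of vector at 42 h (adjusted p = 0.0543). The other 4 genes of the catalytic head, alpha to delta, had differences of -0.13 to 0.15 and none passed.

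**Figure D3:**
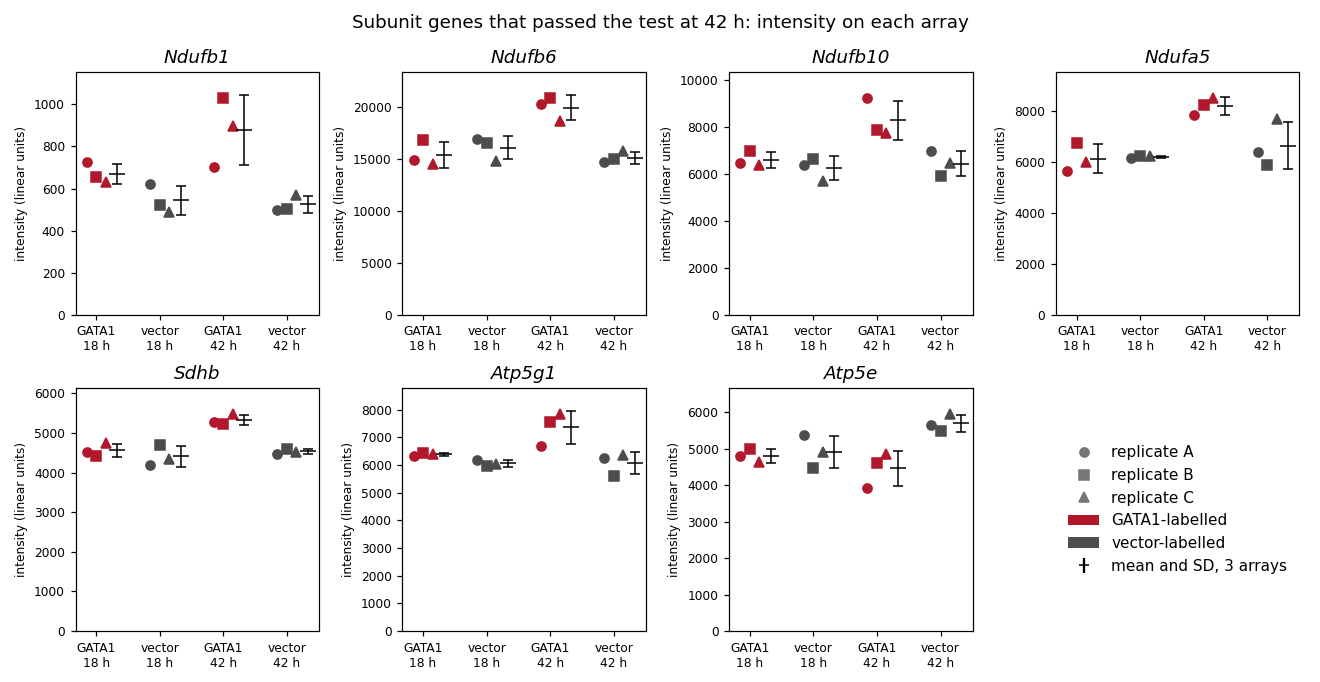
Intensity on each array, in linear units from 0, for the 7 subunit genes that passed the test at 42 h; red is GATA1-labelled, grey is vector-labelled, shapes are replicate letters, and bars are the mean and SD of 3 arrays. At 42 h the red and grey points do not overlap in any of the 7 panels, and at 18 h they overlap in all but Ndufb1 and Atp5g1.

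Some promoters of these genes are known to carry sites for NRF1, YY1 and ETS factors such as GABP, which many genes for mitochondrial proteins share. RefSeq promoter entries on mouse build GRCm38.p6 were found for 66 of the 80 genes, with 71 entries in all, and the 250 bases before each start were searched on both strands. The NRF1 motif, GCGC and TGCGC with any 1 base between them, was in 12 of the 71, or 16.9%, against 3.74% of all 32851 entries. The ETS motif CCGGAAG was also in 16.9% of the subunit entries, against 6.91% of all entries. The YY1 motif AAGATGGC was in 1.41% and 1.56%, and the GATA motif AGATAA in 8.45% and 9.99%. All 4 are exact letter matches that can overlap, and describe these windows only.

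The 4 of the 7 genes that passed at 42 h whose window held a match are printed from 5′ to 3′ along the gene's strand, with the matched letters in capitals, to show where each match lies. The window of Ndufb6, chr4:40279422-40279671 on the minus strand, holds an ETS match beginning 232 bases before the start. That of Ndufa5, chr6:24527691-24527940 on the minus strand, holds an NRF1 match 26 bases before the start, which a second, overlapping entry of the gene also holds. That of Atp5g1, chr11:96075632-96075881 on the minus strand, holds a GATA match 78 bases before it. That of Atp5e, chr2:174464102-174464351 on the minus strand, holds an ETS match 102 bases before it.
Ndufb6: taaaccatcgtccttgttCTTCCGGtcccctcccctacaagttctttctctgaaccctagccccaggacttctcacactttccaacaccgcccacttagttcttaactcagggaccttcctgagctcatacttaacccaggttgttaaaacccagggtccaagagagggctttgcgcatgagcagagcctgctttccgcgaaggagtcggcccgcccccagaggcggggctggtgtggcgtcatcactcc
Ndufa5: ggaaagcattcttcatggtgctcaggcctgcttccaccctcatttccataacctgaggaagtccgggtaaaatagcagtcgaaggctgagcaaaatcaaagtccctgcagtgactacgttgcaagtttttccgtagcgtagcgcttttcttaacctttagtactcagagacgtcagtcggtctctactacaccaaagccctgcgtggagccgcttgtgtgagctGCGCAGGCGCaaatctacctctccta
Atp5g1: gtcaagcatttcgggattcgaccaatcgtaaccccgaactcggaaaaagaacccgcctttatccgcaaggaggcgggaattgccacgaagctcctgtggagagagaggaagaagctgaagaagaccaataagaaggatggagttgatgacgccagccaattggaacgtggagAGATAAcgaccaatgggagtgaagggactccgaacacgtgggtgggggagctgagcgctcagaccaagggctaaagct
Atp5e: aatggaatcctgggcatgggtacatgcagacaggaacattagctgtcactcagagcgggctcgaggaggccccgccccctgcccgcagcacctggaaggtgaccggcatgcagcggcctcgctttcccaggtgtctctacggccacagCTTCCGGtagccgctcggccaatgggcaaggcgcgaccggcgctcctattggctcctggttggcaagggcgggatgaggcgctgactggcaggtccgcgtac
Ndufb6, which rose, and Atp5e, which fell, both had ETS letters in the window, and the windows of Ndufb1, Ndufb10 and Sdhb held none of the 4 motifs.

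Other probe sets of the same genes gave a mixed picture. Among the subunits, 45 had a second tested probe set. At 42 h, 5 of these second probe sets passed in a fit of all probe sets and 3 of the brightest ones in the fit of genes. In no gene did both pass. The share of all probe sets that passed is not given here, so whether 5 of 45 is many or few cannot be told. Adjusted over probe sets, the second ones rose for Atp5o (0.46 ± 0.08, SE), Ndufb8 (0.42 ± 0.11) and Sdhd (0.36 ± 0.07), and fell for Ndufb7 (-0.30 ± 0.07) and Sdha (-0.20 ± 0.06), all on the log2 scale in limma. Atp5o is a subunit of the peripheral stalk of the ATP synthase, and Ndufb7 and Ndufb8 belong to the membrane arm of complex I. These 5 were named after their values were seen. For each of them the brightest probe set had the same sign without passing. A dimmer probe set of Ndufa3, an accessory subunit of complex I, ranked after its second, also passed, with the opposite sign to the brightest. Its mean intensity was 31.6 and its log2 difference was 0.29 ± 0.08 (SE, limma adjusted p = 0.0422), against -0.07 for the brightest.

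For the 3 genes called on the brightest probe set, the second was 0.32 ± 0.10 for Ndufb6 (SE, limma adjusted p = 0.0651), 0.18 ± 0.12 for Ndufa5 (0.406) and 0.01 ± 0.04 for Atp5g1 (0.928), the last from a probe set with a mean intensity of only 11.5. In 32 of 45 genes the signs of both probe sets matched. At 18 h no second probe set passed. A call at 42 h therefore belongs to a probe set, and for these genes other probe sets of the same gene did not cross the threshold with it.

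Time in culture could be followed within each construct. In vector-labelled cells, 42 h against 18 h, 0 of 73 subunits passed in limma, as did only 0.0186% of all genes. An unadjusted p under 0.05 was found for 2 subunits, against 6.28% of all genes. The differences were small, with a median of 0.04 on the log2 scale, against -0.01 over all genes. They lay above 0 for 57 of 73 subunits, while 42.9% of all genes lay above 0. By letter the medians were 0.048 for A, -0.0035 for B and 0.072 for C, so the B arrays did not show the shift.

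In GATA1-labelled cells, 42 h against 18 h, 5 subunits rose and 0 fell, where 14.7% of all genes passed, 6.73% higher and 7.94% lower. This comparison shares the GATA1-labelled arrays at 42 h with the one above, so it is given beside it and not as a second line of evidence. Ndufa5 differed by 0.42 ± 0.10 (SE, limma adjusted p = 0.0172), Ndufb6 by 0.38 ± 0.07 (0.00849), Ndufb10 by 0.32 ± 0.09 (0.0417) and Sdhb by 0.23 ± 0.05 (0.0123). The fifth was Ndufs8, at 12626, 13676 and 12624 at 42 h against 11299, 10927 and 11326 at 18 h, a difference of 0.21 ± 0.05 (SE, adjusted p = 0.025). In vector-labelled cells Ndufs8 read 13068, 11592 and 11815 at 42 h and 12154, 11615 and 11717 at 18 h, which overlapped. Over all 73 subunits the median was 0.08, against 0.0013 over all genes, and 55 of 73 lay above 0. The letters gave medians of 0.060, 0.095 and 0.079. Without array A of GATA1 at 42 h 11 subunits rose. Without array B or C of GATA1 at 18 h or B of GATA1 at 42 h 2 did, and without A of GATA1 at 18 h 3 did. Over all genes the share that passed also moves with the fit, from 14.7% to 21.5% with the replicate block. It is not given for the fits that leave out an array, so these counts are not read as a trait of the subunits. Of the 24 alternatives, 18 kept the call of Ndufa5, 22 that of Ndufb6, 11 that of Ndufb10, 21 that of Sdhb and 16 that of Ndufs8. Ndufb10 and Sdhb have 1 probe set each, so alternatives that change the probe set reuse their same values.

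The effect of GATA1 differed between the times for 1 subunit. For Ndufb6 the difference between GATA1-labelled and vector-labelled cells was larger at 42 h than at 18 h by 0.46 ± 0.10 on the log2 scale (SE, limma adjusted p = 0.0375), where 4.68% of all genes passed, 2.31% higher and 2.38% lower. With the replicate block the adjusted p was 0.0246. The call was lost on leaving out any single array except C of vector or B of GATA1 at 18 h, or C of either group at 42 h, with adjusted p-values of 0.0802 to 0.0969 in those fits. Ndufb1, Ndufb10, Ndufa5, Sdhb, Atp5g1 and Atp5e did not pass this test, so their effects at the 2 times were not shown to differ.

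Genes that build or feed the complexes were taken from lists of known function. The lists also hold subunits outside the symbol rule, such as cytochrome c1 of complex III and ND5 of complex I. At 18 h 0 genes of the 5 lists passed in limma, and 3 assembly factors and 1 regulator of mitochondrial DNA had an unadjusted p under 0.05. Over all genes tested, 1.85% passed and 9.83% had such a p. At 42 h, 6 of 44 tested assembly factors rose and 1 fell, with a median log2 difference of 0.10. The 13.6% that rose is near the 10.3% of all genes, and 2.27% fell, against 10.6% of all genes. Cox19, a copper-related factor of complex IV assembly, was higher by 0.48 ± 0.07 (SE, limma adjusted p = 8.69e-04), at 1282 ± 44.0 in GATA1-labelled cells and 918 ± 83.6 in vector-labelled cells (SD, n = 3 each). Cox15, which makes the heme a of complex IV, differed by 0.45 ± 0.12 (adjusted p = 0.0287, and 0.0543 to 0.1 without array A or C of vector or A or B of GATA1 at 42 h), and Cox17, a copper chaperone and the brightest of the list, by 0.27 ± 0.05 (0.00257). Uqcc3, an assembly factor of complex III, differed by -0.31 ± 0.09 (0.0405), a call kept in 9 of 24 alternatives. Cox15 kept its call in 16 of 24 alternatives, and lost it with its second probe set (limma adjusted p = 0.117) and the mean of its probe sets (0.113). Cox15, Cox17 and Cox19 all serve the assembly of complex IV, but were picked as the largest rises and the brightest gene of the list. The other rises of the list are not named, and whether they differ by complex was not tested.

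Among 14 genes for cytochrome c, cytochrome c1 and coenzyme Q synthesis, 3 rose and 0 fell at 42 h, with a median log2 difference of 0.22. The share that rose was 21.4%, against 10.3% of all genes, and the count ran from 1 to 4 over the alternatives. Coq10b, a coenzyme Q binding protein, averaged 944 ± 70.9 in GATA1-labelled cells and 512 ± 92.9 in vector-labelled cells (SD, n = 3 each), a difference of 0.88 ± 0.13 (SE, limma adjusted p = 9.34e-04). Coq6, a monooxygenase of coenzyme Q synthesis, differed by 0.30 ± 0.08 (adjusted p = 0.0191, and 0.0614 without array A of GATA1 at 42 h). Cycs, the cytochrome c that carries electrons between complexes III and IV, averaged 21480 ± 634 and 19199 ± 1414 in the same order and did not pass (limma adjusted p = 0.0758, and 0.0468 without array B of vector at 42 h).

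Regulators of mitochondrial DNA and biogenesis gave 0 rises and 1 fall of 25 at 42 h, with a median log2 difference of 0.09. Among all genes tested, 10.3% rose and 10.6% fell. Tk2, the mitochondrial thymidine kinase, averaged 129 ± 24.3 in GATA1-labelled cells and 241 ± 22.6 in vector-labelled cells (SD, n = 3 each), a difference of -0.84 ± 0.13 (SE, limma adjusted p = 0.0012). Yy1, a zinc finger factor and the brightest of the list, differed by -0.06 ± 0.06 (SE). Of the 19 tested genes of the citric acid cycle and pyruvate dehydrogenase, 1 rose and 4 fell, or 5.26% and 21.1%, against 10.3% and 10.6% of all genes, with a median log2 difference of 0.05. Idh2, the mitochondrial NADP-dependent isocitrate dehydrogenase, averaged 1103 ± 232 in GATA1-labelled cells and 1739 ± 157 in vector-labelled cells, a difference of -0.67 ± 0.15 (SE, adjusted p = 0.0108). Its second probe set gave 0.18, with an adjusted p of 0.499.

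Pyruvate dehydrogenase genes went both ways at 42 h. Pdha1, its E1 alpha subunit, averaged 1852 ± 125 in GATA1-labelled cells and 2403 ± 20.2 in vector-labelled cells (SD, n = 3 each), a log2 difference of -0.37 ± 0.06 (SE, limma adjusted p = 0.00206). Dlat, its E2 subunit, was higher by 0.40 ± 0.10 (SE, adjusted p = 0.0156). Mdh2, the mitochondrial malate dehydrogenase and the brightest of the list, differed by 0.15 ± 0.12 (SE) and did not pass. Of the subunits encoded in mitochondrial DNA, ND5 of complex I was measured, at 8859 ± 727 in GATA1-labelled cells and 10934 ± 1499 in vector-labelled cells, a difference of -0.30 ± 0.11 (SE, adjusted p = 0.0937, and 0.0431 without array C of vector at 42 h).

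**Figure D4:**
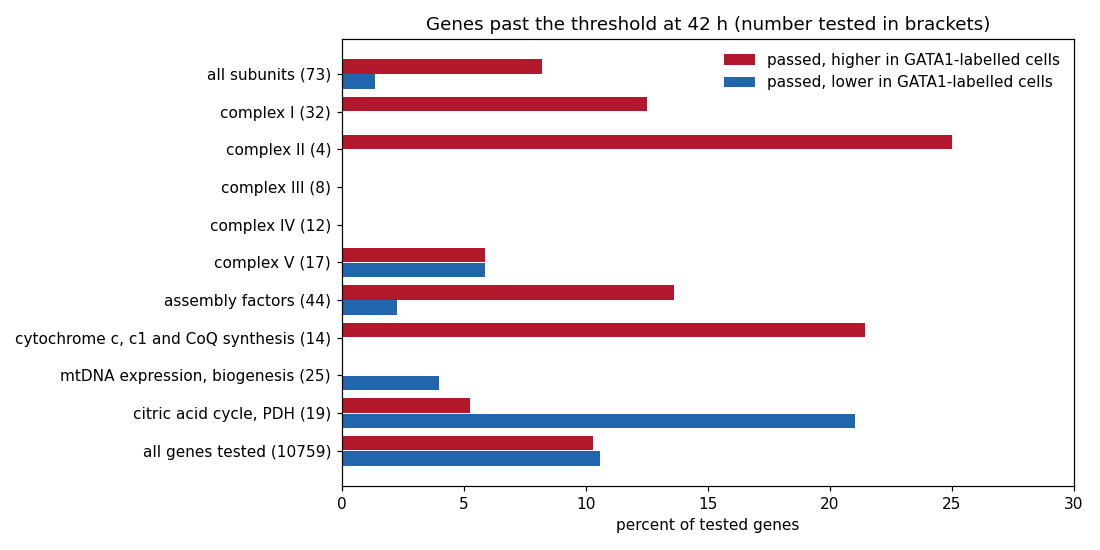
Percent of tested genes past the threshold at 42 h, higher (red) and lower (blue) in GATA1-labelled cells, for all subunits, each complex, the lists of neighbouring function and all genes tested, with the number tested in brackets. Complexes III and IV have no bar, and complex II rests on 1 of 4 genes.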

How the data were processed

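The authors deposited linear intensities of 45101 probe sets for each of 12 arrays, and GCRMA and MAS5 stand in the submitters' processing notes, with no word on which made these values. Background correction and scaling are otherwise not given in the sources used here, and no further normalization was applied. The platform annotation pairs 34945 probe sets with 1 gene, 932 with several and 9224 with none. All 80 members were found in the RefSeq gene table for GRCm38.p6, which together with its promoter table also gave the sequences.

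Deposited intensities were analysed as log2(intensity + 16), so fold changes of dim genes are understated. A gene was tested where its brightest probe set exceeded the array median on at least 3 arrays. The test was limma (version 3.58.1, R 4.3.3), two-sided, with lmFit and eBayes fitted to the 12 arrays together and Benjamini-Hochberg adjustment over 10759 genes and a threshold of 0.05. Confidence intervals are the 95% intervals of that fit. Code was tested on simulated data.

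The members and lists were chosen with earlier results of these data known. Members named were up to 4 rising and 4 falling most per complex among those past the threshold, the 2 brightest of a complex with none, isoform families and the 4 complex II genes, up to 5 in each direction for the other comparisons, and per list up to 2 in each direction with its brightest gene.

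Deviations from group means correlated at 0.31 to 0.66 between same-letter arrays of GATA1 and vector at 18 h and at 0.24 to 0.60 at 42 h. The letters were therefore taken to pair these groups, although arrays of other letters reached 0.39, so pairing of the B arrays at 42 h is unclear. The main fit used group means only, so its SEs, p-values and intervals leave this pairing out. The fit with the letter as a block is given where it changes a call or a count. Other alternatives changed the pseudocount, filter, normalization, probe set, array weights and the arrays included. The highest share of identical values between arrays was 0.0266%.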

Additional observations from a re-analysis of the deposited data

Results flagged for a closer look

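Ndufb6 is singled out because its GATA1 effect differed between 18 h and 42 h in the interaction test. The difference of effects was 0.46 on the log2 scale, from a log2 difference between GATA1-labelled and vector-labelled cells of 0.40 at 42 h and of -0.07 at 18 h. By letter, the difference at 42 h was 0.47 for A, 0.48 for B and 0.24 for C, and at 18 h it was -0.19, 0.03 and -0.03. The second probe set of Ndufb6 gave a difference of effects of 0.34 with a limma adjusted p of 0.324. No other subunit gene passed this test.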

How the results depend on the processing

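At 18 h the counts of members were 0 throughout, and the median ran from -0.024 to 0.0048. At 42 h the number of members higher, reported as 6, was 9 with the mean of probe sets, 9 with array weights, 7 with the replicate block, 7 with a pseudocount of 64, 5 with no filter, 3 without the 4 arrays lettered A and 3 with only the arrays compared, and 4 to 8 on leaving out single arrays. The number lower was 2 with the replicate block, 2 with a pseudocount of 64, 3 with the second brightest probe set, 2 with the mean of probe sets, 4 with array weights, 0 without the A arrays, 0 with only the arrays compared, and 1 to 4 on leaving out single arrays (4 without array C of GATA1 and 2 without array B of vector at 42 h). For the difference of effects the number higher was 0 with no filter, 0 with an intensity above 100 on at least 3 arrays, 2 with the mean of probe sets, 0 without the A arrays, and 0 to 2 on leaving out single arrays. Its median of 0.05 became -0.011 without array B of vector at 42 h and ran to 0.066 without array C of vector at 42 h. For GATA1-labelled cells over time the number higher was 8 with the replicate block, where 21.5% of all genes passed in either direction. Same-letter correlations between these groups were 0.57 for A, 0.05 for B and 0.61 for C, so pairing is unclear for B. The number higher was 3 with an intensity above 100, 3 after quantile normalization, 11 with the mean of probe sets and 16 with array weights. It was 3 without the A arrays, and 2 to 11 on leaving out single arrays. For alternatives other than the block, the share of all genes that passed is not given beside the counts in this section. As printed here, those counts are therefore not set against all genes, and are not read as a trait of the subunits. In the vector-labelled time comparison all counts were 0. The median at 42 h stayed between 0.01 and 0.04. The block changed no other named call than those given with it. Named calls at 42 h were kept in 24 of 24 alternatives for Ndufb1, 20 for Ndufb10, 23 for Sdhb and 21 for Atp5e. These genes have 1 probe set each, so the second brightest probe set and the mean of probe sets reuse their same values. Calls were kept in 22 of 24 for Ndufb6, 10 for Ndufa5 and 21 for Atp5g1. Ndufb6, Ndufa5 and Atp5g1 all lost the call with their second brightest probe set. The counts of genes with 1 probe set and with more are therefore not comparable. The neighbouring lists were put through the same alternatives after the data were seen, and Idh2 was reversed, at 0.18, with its second probe set. At 42 h assembly factors rising numbered 2 to 11 and falling 0 to 2, cytochrome c and coenzyme Q genes 1 to 4 and 0 to 1, regulators of mitochondrial DNA 0 to 2 and 1 to 2, and citric acid cycle genes 0 to 4 and 0 to 5. The causes were not tested. Signal over background was not analysed here.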
